A study of Drosophila melanogaster with 9 samples.

Results

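The imaginal disc growth factor genes Idgf1, Idgf2, Idgf3, Idgf4 and Idgf5 were followed with RNA sequencing of Kc167, a hemocyte-like cell line made from Drosophila melanogaster embryos. Members were identified by gene symbol, and all 5 were found among the 14797 genes of the deposited table. Idgf1 and Idgf2 rose after RNA interference (RNAi) against ph and E(z), Idgf3 was abundant in every group, Idgf4 did not exceed 1.66 FPKM in any library, and Idgf5 did not exceed 0.387 FPKM. FPKM counts sequenced fragments relative to transcript length and to the number of mapped fragments.

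There were 3 groups with 3 libraries each. One group received control dsRNA, with no target named in the labels, another received dsRNA against ph and E(z), and the last received dsRNA against ph, E(z) and CtBP. All cultures were of the same cell line, were given 15 µg of dsRNA for a set number of cells, first without serum and then with serum added back, and were harvested on day 7. The labels do not say whether the replicates were separate cultures, so p-values measure only the spread between these libraries. The ph locus consists of adjacent genes, ph-p and ph-d, that encode Polyhomeotic, part of Polycomb repressive complex 1. The product of E(z) methylates lysine 27 of histone H3 within Polycomb repressive complex 2. The product of CtBP is a corepressor recruited by DNA-binding repressors.

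Imaginal disc growth factors are secreted glycoproteins with the fold of the glycosyl hydrolase 18 (GH18) chitinases. A substitution at the catalytic site leaves them without chitinase activity. They were found in medium conditioned by cultured imaginal disc cells, where they promote growth together with insulin, and in the animal the fat body and hemocytes are known sources of them. Work in flies has also tied them to the organisation of the cuticle and to wound healing.

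The treatments were read in the target genes before anything else. E(z) was measured at 43.4, 37.4 and 31.2 FPKM in control cells and between 8.29 and 12.1 FPKM in the 6 libraries treated against it. CtBP lay between 189 and 221 FPKM in the 6 libraries not treated against it and at 49.0, 41.8 and 65.8 FPKM with CtBP RNAi. For ph-p the library labelled control replicate 1 went against its label: it held 4.64 FPKM, below the 7.15 to 10.3 FPKM of the 6 treated libraries, while control replicates 2 and 3 held 18.9 and 18.1 FPKM. The same library held 1.26 FPKM of ph-d, against 3.73 to 5.72 FPKM in the other 8. Neither ph-p nor ph-d passed the test for ph+E(z) RNAi against control (limma adjusted p = 0.486 and 0.629), but without that library ph-p fell by 1.25 on the log2 scale (limma adjusted p = 0.00617) and ph-d differed by -0.19 (0.560). Control replicate 1 also stood apart in composition, with 40.0% of its FPKM in 86 ribosomal protein genes against 26.7% to 31.1% in the other 8 libraries. Values against control are therefore also given without it where it moves them. The sum of FPKM over all genes ranged from 725406 to 908290 per library, and no read numbers accompany it, which leaves the depth behind each value unknown.

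Idgf1, Idgf2 and Idgf3 are neighbours. In the dm6 annotation Idgf1 (FBgn0020416, 2L, 16445278 to 16446793), Idgf2 (FBgn0020415, 2L, 16447330 to 16450508) and Idgf3 (FBgn0020414, 2L, 16450907 to 16455194) all lie on the plus strand and together span 9917 bases. Only 536 bases separate Idgf1 from Idgf2, and 398 bases separate Idgf2 from Idgf3. Idgf4 (FBgn0026415, X, 9927973 to 9930948, minus strand) and Idgf5 (FBgn0064237, 2R, 18393666 to 18395282, plus strand) lie alone on other chromosomes. The annotated coding sequences are of nearly one length, from 439 residues for Idgf1 to 444 for Idgf5. Idgf1 has 1 annotated transcript of 2 exons, Idgf2 has 3 transcripts, and Idgf3 has 4 transcripts of 1649 to 3801 bases. The deposited interval of Idgf3, 16450906 to 16453176, ends before the annotated gene does and is too short for the longest of these transcripts. FPKM divides by transcript length, so the level of Idgf3 depends on the transcript models used, which are not stated.

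Idgf1 lies whole inside an intron of CG5888, a gene on the opposite strand, and the start of Idgf2 lies inside the same gene. No annotated exon base is shared: the overlap of exons is 0 bases for Idgf1 and 0 bases for Idgf2, although 176 exon bases of Idgf2 lie within the span of CG5888. Whether the libraries keep strand is not stated, and without strand intronic reads of CG5888 and reads of Idgf1 cannot be told apart. The next gene to the right, dac, lies on the minus strand. The end of dac nearer to the cluster, where its transcripts end, lies 11317 bases beyond Idgf3.

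**Figure D1:**
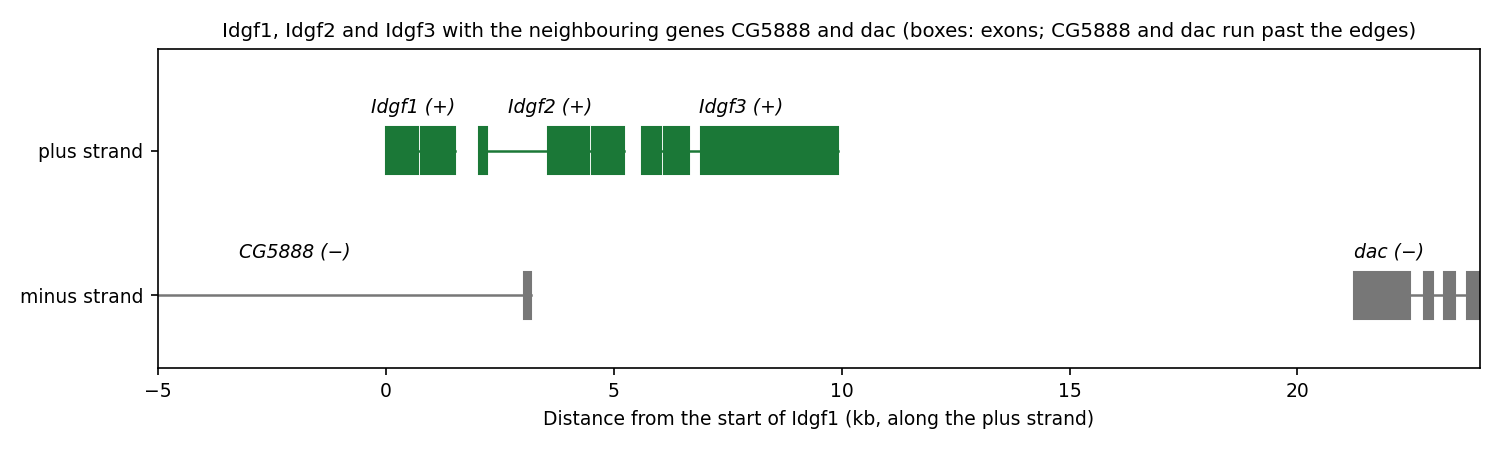
Map of the Idgf1 to Idgf3 cluster in the dm6 annotation, with distance from the start of Idgf1 in kb on the x axis and the strand on the y axis; boxes are exons of all annotated transcripts and lines are gene spans. Idgf1 sits in an intron of CG5888, and the gap from Idgf3 to dac (11317 bases) is longer than the whole cluster (9917 bases).

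Idgf1 was measured at 91.3, 238.0 and 216.7 FPKM in the control libraries, at 450.6, 605.3 and 629.6 FPKM with ph+E(z) RNAi, and at 767.4, 755.6 and 442.7 FPKM with ph+E(z)+CtBP RNAi. Every treated library was above every control library, and the ranges of the treated groups overlapped each other. Idgf2 was measured at 11.1, 14.9 and 11.7 FPKM in the control libraries, at 56.7, 91.0 and 88.1 FPKM with ph+E(z) RNAi, and at 157.2, 130.0 and 51.2 FPKM with ph+E(z)+CtBP RNAi. Every treated library was again above every control library, and the treated groups overlapped. Of all 8853 genes tested, 13.8% had all 3 ph+E(z) libraries above all 3 control libraries. For the ph+E(z)+CtBP libraries the share was 18.4%. The share with both at once was not computed.

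Idgf3 was measured at 262.2, 169.1 and 165.0 FPKM in the control libraries, at 299.5, 375.0 and 371.9 FPKM with ph+E(z) RNAi, and at 432.8, 377.9 and 242.1 FPKM with ph+E(z)+CtBP RNAi. Its highest control value came from control replicate 1, the library in which Idgf1 was lowest. Without that library the control values of Idgf3 lay below all 6 treated ones; with it, 8 of 9 pairs of a ph+E(z)+CtBP library and a control library had the treated one higher.

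Idgf4 was measured at 0.0747, 0.160 and 0.405 FPKM in the control libraries, at 0.672, 0.730 and 0.731 FPKM with ph+E(z) RNAi, and at 1.66, 1.32 and 0.964 FPKM with ph+E(z)+CtBP RNAi. The 3 groups did not overlap, but all values were close to the limit of 0.5 FPKM used to admit genes to the test. Idgf4 passed that limit through the treated libraries alone, since 0 of 3 control libraries reached it. Idgf5 was measured at 0.387, 0.0829 and 0.168 FPKM in the control libraries, at 0.348, 0.252 and 0.0841 FPKM with ph+E(z) RNAi, and at 0.172, 0 and 0.272 FPKM with ph+E(z)+CtBP RNAi. The groups overlapped, Idgf5 did not pass the limit in any library, and it was not tested.

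**Figure D2:**
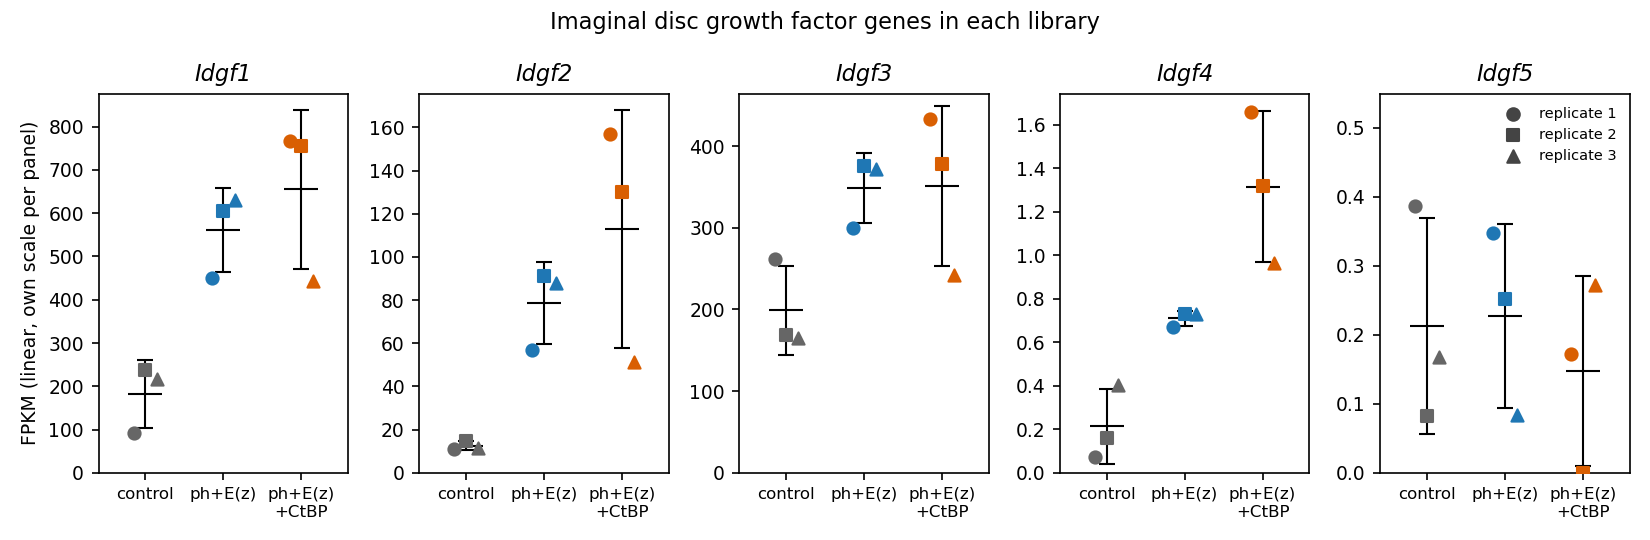
FPKM of each imaginal disc growth factor gene (y axis, linear, a separate scale per panel) in the 3 groups (x axis); symbols are libraries by replicate number, and the horizontal mark and bars are the mean ± SD of 3 libraries. Idgf1 and Idgf2 are higher in every treated library than in any control library, and Idgf5 stays below 0.5 FPKM throughout. Idgf4 separates too, but it entered the test only through its treated libraries, so this is not counted for it. Of all tested genes, 13.8% lay above control in all ph+E(z) libraries and 18.4% in all ph+E(z)+CtBP libraries.

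The genes were also ordered by level on the FPKM scale. In control cells Idgf3 (199 ± 54.9 FPKM, SD, n = 3) and Idgf1 (182 ± 79.3) overlapped, and their order rested on control replicate 1: without it the means were 167 FPKM for Idgf3 and 227 FPKM for Idgf1, the order seen in the treated groups. In the control group with all 3 libraries, Idgf2 followed at 12.5 ± 2.04 FPKM without overlap, and Idgf4 and Idgf5, which overlapped, came last. With ph+E(z) RNAi the order was Idgf1 (562 ± 97.1 FPKM), Idgf3 (349 ± 42.7), Idgf2 (78.6 ± 19.0), Idgf4 and Idgf5, and no neighbours in it overlapped. The order was the same with ph+E(z)+CtBP RNAi, where Idgf1 lay at 655 ± 184 FPKM, Idgf3 at 351 ± 98.2 and Idgf2 at 113 ± 55.1. There the lowest Idgf1 library (442.7 FPKM) and the highest Idgf3 library (432.8 FPKM) nearly met. Ranked among all 14797 genes by group mean FPKM, Idgf1 moved from position 563 in control cells to 189 and 177 in the treated groups, and Idgf2 from 5654 to 1455 and 937. Without control replicate 1 the control positions were 424 for Idgf1 and 5564 for Idgf2.

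The comparison of ph+E(z) RNAi with control RNAi asks which of these genes change when subunits of both Polycomb repressive complexes are targeted. Of the 4 genes tested, Idgf2 and Idgf1 rose and Idgf3 and Idgf4 did not pass the threshold. Idgf2 rose by 2.58 ± 0.39 (SE) on the log2(FPKM + 0.5) scale (limma, adjusted p = 0.0103), and Idgf1 rose by 1.73 ± 0.38 (adjusted p = 0.0440). The log2 differences of Idgf3, 0.84 ± 0.25, and of Idgf4, 0.79 ± 0.24, each had a limma adjusted p of 0.128. In this comparison 2.58% of the 8853 tested genes were called higher and 3.92% were called in either direction. Idgf1, Idgf2 and Idgf3 had their 3 ph+E(z) libraries above their 3 control libraries, as did 13.8% of the tested genes; Idgf4 did too, but it entered the test only through its treated libraries, so this is not counted for it. The median log2 difference over all tested genes was -0.001. In bulk RNA, more cells of a kind and more RNA per cell cannot be told apart.

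The call on Idgf1 in this comparison was close to the threshold. Without control replicate 1 the log2 differences were 1.29 for Idgf1 (limma adjusted p = 0.0234), 2.50 for Idgf2 (0.0179), 1.05 for Idgf3 (0.0341) and 0.65 for Idgf4 (0.186), so 3 of the 4 were called, against 602 of all tested genes. Leaving out any library other than control replicate 1 or ph+E(z)+CtBP replicate 3 ended the call on Idgf1 (adjusted p between 0.0548 and 0.174). The call on Idgf2 ended without ph+E(z) replicate 2 (adjusted p = 0.0633) or replicate 3 (0.0600).

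The authors' deposited table gives q-values of their own for this comparison of 0.00102 for Idgf1, 0.0487 for Idgf2 and 0.00427 for Idgf3. The authors' deposited table marks Idgf4 and Idgf5 as not tested. Idgf3 was thus called in that table and not in the limma fit with all 9 libraries.

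The comparison of ph+E(z)+CtBP RNAi with ph+E(z) RNAi asks what RNAi against CtBP adds in cells already treated against ph and E(z). None of the 4 tested Idgf genes was called by limma, and 1, Idgf4, had an unadjusted p under 0.05. The log2 difference was 0.19 for Idgf1 (95% interval -0.67 to 1.05, adjusted p = 0.923), 0.40 for Idgf2 (-0.50 to 1.30, 0.769) and -0.03 for Idgf3 (-0.61 to 0.56, 0.992). These intervals hold doublings of Idgf1 and Idgf2, so a change of that size lies within the error of these libraries. The log2 difference of Idgf4 was 0.57 (95% interval 0.02 to 1.11), with an unadjusted p of 0.0442 and a limma adjusted p of 0.325. Idgf4 was the only member whose 3 ph+E(z)+CtBP libraries all lay above the 3 ph+E(z) libraries, which held for 15.1% of the tested genes. Here 1.94% of the tested genes were called higher and 3.72% in either direction, and 1288 had an unadjusted p under 0.05.

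In the group with CtBP RNAi, replicate 3 was the lowest of the 3 for Idgf1, Idgf2, Idgf3 and Idgf4, and it also kept the most CtBP RNA, 65.8 FPKM against 49.0 and 41.8. Within the ph+E(z) group, replicate 1 was the lowest for the same 4 genes and kept the most E(z) RNA, 12.1 FPKM against 8.81 and 8.29. The part of the remaining target RNA in these differences was not tested. Without ph+E(z)+CtBP replicate 3 the log2 differences were 0.45 for Idgf1, 0.89 for Idgf2, 0.22 for Idgf3 and 0.71 for Idgf4, and their limma adjusted p lay between 0.114 and 0.819. The authors' deposited table gives q-values of 0.773, 0.850, 0.992 and 0.207 for Idgf1 to Idgf4 in this comparison.

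With RNAi against all 3 targets, set against the same control libraries, Idgf2, Idgf1 and Idgf4 rose. Idgf2 rose by 2.98 ± 0.39 on the log2 scale (limma adjusted p = 0.00357), Idgf1 by 1.92 ± 0.38 (0.0171) and Idgf4 by 1.36 ± 0.24 (0.0113). The value of Idgf4 depends on the pseudocount, with 2.29 at 0.1 and 0.93 at 1, both of them called. Idgf3 differed by 0.81 ± 0.25 (adjusted p = 0.0837). The background was 5.58% of tested genes called higher and 9.73% called in either direction. Idgf1, Idgf2 and Idgf4 had every ph+E(z)+CtBP library above every control library, as did 18.4% of the tested genes. Since Idgf4 entered the test only through its treated libraries, it had to be higher in them, and its call is not read as support.

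Without control replicate 1 all 4 genes were called in this comparison, with log2 differences of 1.48 for Idgf1, 2.90 for Idgf2, 1.03 for Idgf3 (limma adjusted p = 0.0207) and 1.21 for Idgf4, against 1541 calls over all genes. Without ph+E(z)+CtBP replicate 3 all 4 were called as well. Without replicate 1 or 2 of that group only Idgf2 was called, with adjusted p of 0.0795 and 0.0796 for Idgf1 and of 0.0567 and 0.0511 for Idgf4. The calls over all tested genes moved with the library left out too, and were fewest without ph+E(z)+CtBP replicate 1. These counts of Idgf genes are therefore not read apart from that shift, and the calls on Idgf4 are again not read as support.

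**Figure D3:**
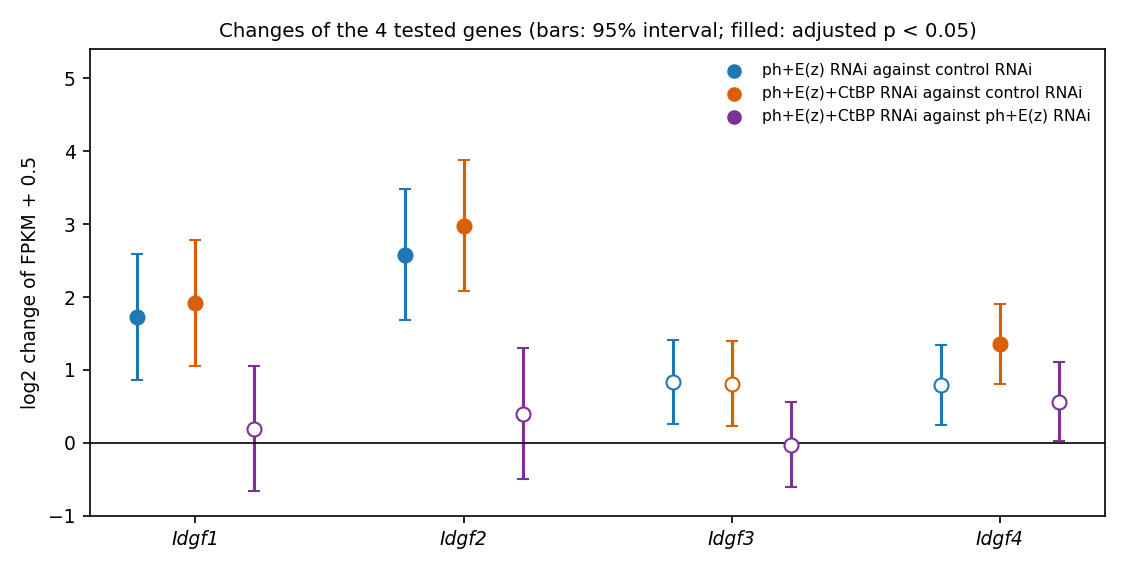
Log2 difference of FPKM + 0.5 (y axis) for the 4 tested genes (x axis) in the 3 comparisons (colours); points are limma estimates, bars are 95% intervals, and filled points have an adjusted p under 0.05. Against control RNAi the estimates lie between 0.79 and 2.98, and for the addition of CtBP RNAi they lie between -0.03 and 0.57 with 1 interval, that of Idgf4, just clear of 0.

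Summed over the 5 genes, Idgf RNA amounted to 365, 422 and 394 FPKM in the control libraries, to 808, 1072 and 1090 FPKM with ph+E(z) RNAi, and to 1359, 1265 and 737 FPKM with ph+E(z)+CtBP RNAi. The control libraries were alike in the sum although control replicate 1 differed in its parts. Idgf3 made up 71.8% of the sum there, against 40.1% and 41.9% in the other control libraries and 29.9% to 37.1% in the treated ones. Idgf1 made up 25.0% of the sum in control replicate 1 and 55.0% to 60.1% in the other 8 libraries. The ratio of Idgf1 to Idgf3 FPKM was 0.348 in control replicate 1, 1.41 and 1.31 in control replicates 2 and 3, up to 1.69 with ph+E(z) RNAi, and 1.77 or more with ph+E(z)+CtBP RNAi. Idgf2 made up 2.96% to 3.52% of the sum in the control libraries, 7.01% to 8.49% with ph+E(z) RNAi and 6.94% to 11.6% with ph+E(z)+CtBP RNAi. These shares are a description and were not tested.

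**Figure D4:**
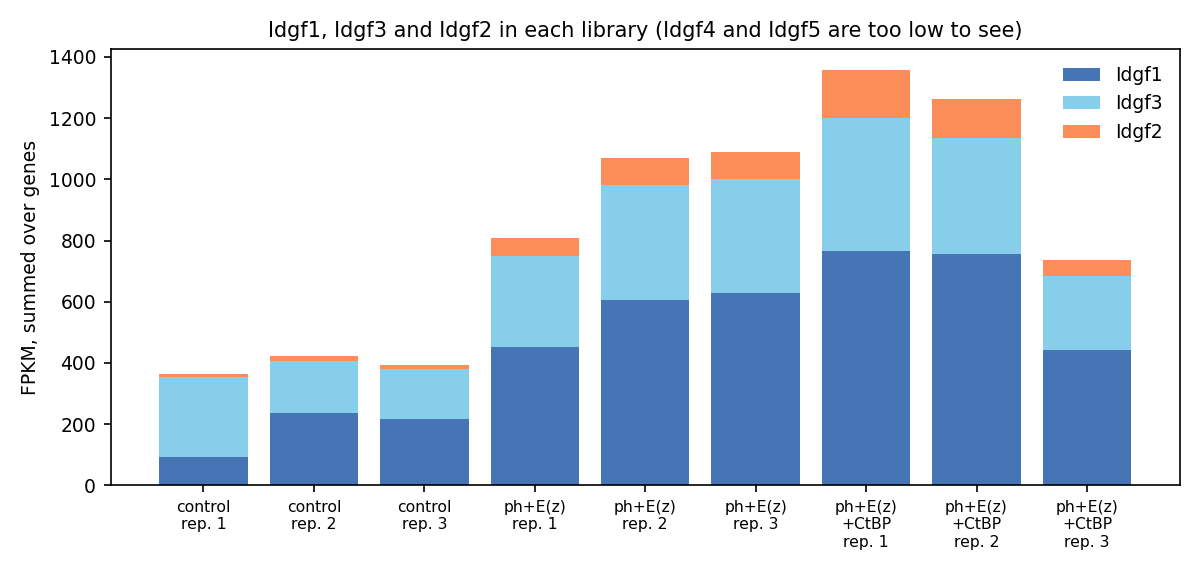
Stacked FPKM of Idgf1, Idgf3 and Idgf2 (y axis, linear from 0) in each of the 9 libraries (x axis). The sums of the control libraries lie between 365 and 422 FPKM and those of the treated libraries between 737 and 1359, and control replicate 1 holds mostly Idgf3.

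Over the 9 libraries the log2 values of Idgf1 and Idgf2 had a Pearson r of 0.94, those of Idgf2 and Idgf3 of 0.88, and those of Idgf1 and Idgf3 of 0.70. The libraries share the 3 treatments, so these values mostly repeat the group differences. After the group means were subtracted, r was 0.67 for Idgf1 with Idgf2, 0.68 for Idgf2 with Idgf3 and -0.07 for Idgf1 with Idgf3. All of these values include control replicate 1, where Idgf1 was the lowest of the control libraries (91.3 FPKM) and Idgf3 the highest (262.2 FPKM). Values of r without that library were not computed, so the -0.07 is not read as a lack of shared variation. The values of r are descriptions over 9 libraries with no test.

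The genes around the cluster were read next. CG5888, the gene around Idgf1, was measured at 29.6, 65.3 and 67.3 FPKM in the control libraries, at 92.4, 102.6 and 98.5 FPKM with ph+E(z) RNAi, and at 89.7, 91.4 and 70.8 FPKM with ph+E(z)+CtBP RNAi. Its log2 difference for ph+E(z) RNAi against control was 0.94 ± 0.29 (limma adjusted p = 0.134), and like Idgf1 it was lowest in control replicate 1. Without that library the difference was 0.56 and was called (adjusted p = 0.0292). The gene dac, which encodes the transcription factor Dachshund of eye and leg development, was measured at 0.128, 0.159 and 0.161 FPKM in control cells, at 4.94, 8.13 and 8.22 FPKM with ph+E(z) RNAi, and at 4.27, 4.28 and 2.98 FPKM with ph+E(z)+CtBP RNAi. With ph+E(z) RNAi it rose by 3.52 ± 0.23 in log2 units (limma adjusted p = 0.00021) and by 2.73 ± 0.23 with RNAi against all 3 targets (adjusted p = 0.000539). No control library reached 0.5 FPKM of dac. It entered the test only through its treated libraries, so its calls are not read as support.

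Of the glutathione S-transferase genes beside Idgf5, GstE2 had a log2 rise of 0.81 ± 0.15 in ph+E(z) RNAi (limma adjusted p = 0.0264). GstE1 differed by -0.68 (adjusted p = 0.224) and GstE10 by 0.09 (0.943). The call on GstE2 was lost when any of 6 of the 9 libraries was left out. The 3 bomanin genes nearest to Idgf5 were at 0 FPKM in every library, and CG1986, the gene nearest to Idgf4, did not exceed 0.174 FPKM.

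Among the other members of the GH18 family, Chit, also known as Idgf6, was the most abundant. Chit was measured at 227, 223 and 212 FPKM in the control libraries, at 367, 526 and 578 FPKM with ph+E(z) RNAi, and at 300, 277 and 209 FPKM with ph+E(z)+CtBP RNAi. The ph+E(z) libraries lay above all others, and the group with CtBP RNAi overlapped the control. Chit rose with ph+E(z) RNAi, by 1.12 ± 0.19 in log2 units (limma adjusted p = 0.0184) and fell by 0.89 ± 0.19 when CtBP RNAi was added (adjusted p = 0.0443). With RNAi against all 3 targets it differed from control by 0.23 (adjusted p = 0.443). The call on the rise with ph+E(z) RNAi was lost without 4 of the 9 libraries in turn (limma adjusted p up to 0.0953). The call on the fall with CtBP RNAi was lost without 7 of the 9 libraries in turn (adjusted p up to 0.190).

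With ph+E(z)+CtBP RNAi the values of Chit thus overlapped those of control cells, while those of Idgf1 and Idgf2 lay above them and those of Idgf3 did in 8 of 9 pairs. The ratios to Chit that follow were chosen after their values were seen. The log2 ratio of Idgf1 to Chit was 0.21 ± 0.09 (SD, n = 3) with ph+E(z) RNAi and 1.29 ± 0.19 with ph+E(z)+CtBP RNAi, a difference of 1.09. The difference was 1.29 for Idgf2 over Chit and 0.87 for Idgf3 over Chit. For each of these 3 ratios all ph+E(z)+CtBP libraries lay above all ph+E(z) libraries. Because they were chosen for this separation, they are given as a description with no test. Each difference includes the change of Chit itself, -0.89 on the log2 scale. The changes of Idgf1, Idgf2 and Idgf3 were 0.19, 0.40 and -0.03, none of them called by limma. A gene that did not change would also rise over Chit, and the share of all genes separated in this way was not computed. The ratios are therefore not read as a trait of the Idgf genes.

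**Figure D5:**
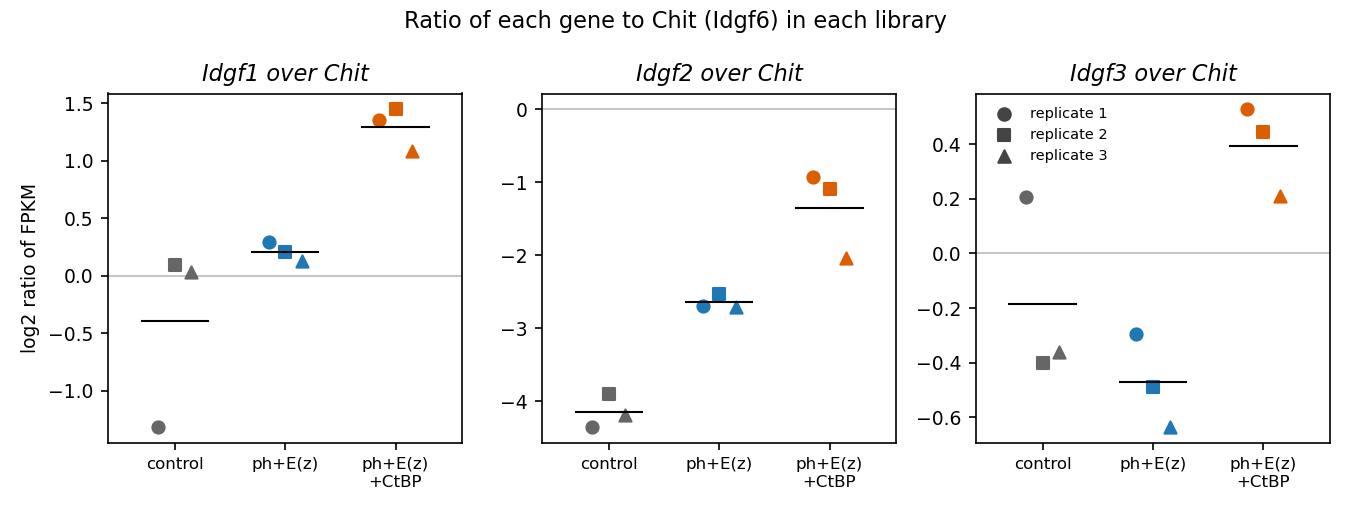
Log2 ratio of the FPKM of Idgf1, Idgf2 and Idgf3 to that of Chit (y axis, own scale per panel) in each library by group (x axis); lines are means of 3 libraries. In all 3 panels the ph+E(z)+CtBP libraries lie above the ph+E(z) libraries, by 1.09, 1.29 and 0.87 on average. These differences include the change of Chit itself, -0.89 on the log2 scale.

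The rest of the GH18 list moved in both directions. The list covers 11 genes, of which 7 were tested, Chit among them. Cht2, a chitinase, fell from 213, 123 and 124 FPKM in the control libraries to 67.7, 57.1 and 59.5 with ph+E(z) RNAi, by 1.27 on the log2 scale (limma adjusted p = 0.0199), and lay at 47.0, 48.4 and 62.6 FPKM with RNAi against all 3 targets. Cht3, another chitinase, was measured at 4.91, 13.6 and 12.4 FPKM in the control libraries and rose to between 25.9 and 34.1 FPKM with ph+E(z) RNAi, by 1.54 (adjusted p = 0.0447), a call lost without 7 of the 9 libraries in turn. Without control replicate 1 Cht2 and Cht3 were both called as well (adjusted p = 0.00616 and 0.00667). In all, 2 rose, 1 fell and 4 missed the threshold under ph+E(z) RNAi, and the median log2 difference was 0.23 beside -0.001 over all tested genes; without control replicate 1 the median was -0.06. With CtBP RNAi added to ph+E(z) RNAi, Chit fell and the other 6 were not called. With RNAi against all 3 targets, set against control, Cht3 rose, Cht2 fell and 5 were not called.

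Other genes of growth control were counted next. Of 6 adenosine deaminase-related growth factors, secreted enzymes that also act on cells in culture, 2 were tested and 0 were called by limma in any comparison; unadjusted p was under 0.05 for 0, 0 and 2 of them in the 3 comparisons, in the order above. Without control replicate 1, where the calls over all tested genes rose too, the count called was 0, 0 and 1. Of 24 other secreted growth factors 18 were tested. With ph+E(z) RNAi 2 of them rose and 1 fell: pyr, a ligand of the fibroblast growth factor receptor Heartless, rose from a mean of 1.18 to 13.7 FPKM (adjusted p = 0.00361), dpp, a bone morphogenetic protein, rose by 1.52 (0.0234), and Pvf2, a ligand of the PDGF and VEGF receptor homologue, fell by 1.02 (0.0103). With CtBP RNAi added, daw, an activin-type ligand, rose by 1.90 (limma adjusted p = 0.00605), Pvf2 rose by 1.08 (0.00873) and dpp fell by 1.51 (0.0246). Each of the calls on dpp was lost in 5 of the 9 fits that left out a library (adjusted p up to 0.110 and 0.120). With RNAi against all 3 targets, pyr and daw rose against control. This call on daw was lost in 4 of the 9 fits that left out a library (limma adjusted p up to 0.0897). The median log2 difference of the 18 genes was -0.15, 0.20 and 0.29 in the 3 comparisons, and without control replicate 1 the last was 0.08.

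Insulin acts together with the imaginal disc growth factors in culture, and its pathway was counted by a list of 24 genes, of which 17 were tested. With ph+E(z) RNAi 0 were called by limma, 0 had an unadjusted p under 0.05, and the median log2 difference was 0.27, or 0.04 without control replicate 1. With CtBP RNAi added, Thor, the inhibitor of translation 4E-BP, rose by 1.06 (limma adjusted p = 0.00426). Without control replicate 1, 5 genes of the list were called, while the calls over all tested genes rose from 329 to 1191. With RNAi against all 3 targets, set against control, Thor, the insulin-like peptide gene Ilp6, the transcription factor gene foxo and the kinase gene Pk61C rose, by 1.16, 1.06, 0.88 and 0.49 on the log2 scale. The calls on foxo and Pk61C were each lost in 7 of the 9 fits that left out a library (limma adjusted p up to 0.137 and 0.145). In 5 genes of the list, Ilp1, Ilp2, Ilp3, Ilp4 and Ilp7, every library was at 0 FPKM. Of 10 genes of the chitin matrix 5 were tested, and the chitin deacetylase genes Cda4 and Cda9 rose with RNAi against all 3 targets (0.75, adjusted p = 0.0400, and 1.25, 0.0333). These calls were lost in 7 and 6 of the 9 fits that left out a library (limma adjusted p up to 0.156 and 0.121). Cda9 was under 0.5 FPKM in every control library and entered the test only through treated libraries, so its call is not read as support.

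Markers of the cell types that make imaginal disc growth factors were read beside these values. All 12 plasmatocyte markers passed the limit, and the hemocyte genes Pxn and srp had means of 41.5 and 136 FPKM in control cells. For srp, control replicate 1 held 77.7 FPKM against 164 and 165 in the other control libraries. Other markers of the list were lower in control cells, among them nimC1, Sr-CI and eater, with means of 3.98, 3.88 and 4.88 FPKM. The summed level of the 12 was 1977 to 2208 FPKM in the control libraries, 10364 to 20445 FPKM with ph+E(z) RNAi and 2794 to 4462 FPKM with ph+E(z)+CtBP RNAi. The median log2 difference of the 12 was 1.53, -2.29 and -0.69 in the 3 comparisons, and without control replicate 1 the values against control were 0.80 and -1.55. With ph+E(z) RNAi 4 rose and 1 fell, with CtBP RNAi added 8 fell, and with RNAi against all 3 targets 4 fell against control. Without control replicate 1 these counts were 5 and 1, 10, and 8, with 1 that rose in the last. The calls over all tested genes rose as well, from 347 to 602 with ph+E(z) RNAi and from 329 to 1191 with CtBP RNAi added. They also rose in the last comparison. Nplp2 was the largest part of the sum, at 1754, 1043 and 1124 FPKM in the control libraries. It lay at 9149, 18303 and 18688 FPKM with ph+E(z) RNAi and at 3490, 3992 and 2232 FPKM with ph+E(z)+CtBP RNAi. The sum therefore mostly followed Nplp2. With RNAi against all 3 targets the sum lay above control, although the median log2 difference of the 12 markers was -0.69. The sum was higher in every ph+E(z) library than in control, as were Idgf1 and Idgf2, the sum was lower once CtBP RNAi was added, where no Idgf gene was called, and the part of the plasmatocyte markers in the Idgf values was not tested. The 6 fat body markers were near 0: Lsp1alpha and Lsp1gamma were at 0 in every library, and the summed level of the list did not exceed 1.78 FPKM.

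Lists for other cell types held lower levels. Of 2 tested crystal cell markers, lz and peb, both rose with ph+E(z) RNAi and with RNAi against all 3 targets. The summed level of the list was 0.598 to 11.4 FPKM over the 9 libraries. Neither lz nor peb reached 0.5 FPKM in a control library. Both entered the test only through treated libraries, so their calls are not read as support. Of 5 lamellocyte markers 0 were called by limma with ph+E(z) RNAi, and 3 had an unadjusted p under 0.05. Without control replicate 1 the count called there was 1, against 602 of all tested genes. The markers msn and alphaPS4 rose with RNAi against all 3 targets. Of 4 tested neuronal markers 0 were called by limma and 0 had an unadjusted p under 0.05 in any comparison. The 2 tested muscle markers, Mlc2 and wupA, rose with RNAi against all 3 targets, and of 4 markers of the disc epithelium Fas3 rose in both comparisons with control. Fas3 was under 0.5 FPKM in every control library and entered the test only through treated libraries, so its calls are not read as support.

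The named genes whose pattern over the 9 libraries was most like that of each Idgf gene were found by the Pearson correlation of log2(FPKM + 0.5). For Idgf1 they were ics (r = 0.992), Sema-1b (0.988), a semaphorin gene, and Mctp (0.986). For Idgf2 they were C3G (0.988), which encodes an exchange factor for small GTPases, Fas3 (0.987), which encodes the adhesion protein Fasciclin 3, and Ndae1 (0.985), an anion exchanger gene. For Idgf3 they were Rab11 (0.977), which encodes a GTPase of recycling endosomes, Wsck (0.970) and Myo61F (0.967), an unconventional myosin gene. For Idgf4 they were elB (0.972), Amph (0.970) and W (0.970), the cell death gene hid.

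These genes differed in how far they moved. The best match of Idgf2 after C3G, Fas3, was measured at 0.335, 0.309 and 0.404 FPKM in the control libraries, at 5.08, 5.35 and 5.85 FPKM with ph+E(z) RNAi, and at 13.2, 12.0 and 4.43 FPKM with ph+E(z)+CtBP RNAi. As with Idgf2, ph+E(z)+CtBP replicate 3 was the lowest of its group. Fas3 was chosen for its correlation with Idgf2 over these same libraries, so this likeness follows from the choice. The correlations of all these matches also include the differences between the groups. They include control replicate 1 as well. Among the control libraries, it held the lowest values of ics, Sema-1b and Mctp and the highest values of Rab11, Wsck and Myo61F. Correlations without that library were not computed. The best match of Idgf1, ics, moved far less, from a mean of 22.5 ± 4.09 FPKM in control cells to 37.1 ± 1.76 and 37.9 ± 4.16 in the treated groups. The best match of Idgf3, Rab11, lay at 394 ± 64.7, 525 ± 45.2 and 523 ± 50.9 FPKM in the 3 groups and was called in no comparison by limma.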

How the data were processed

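RNA was measured in 9 libraries, 3 per group. The authors deposited FPKM per gene and library, and the deposited table also holds the authors' q-values of 2 comparisons. Per the submitters' processing notes, Bowtie2 2.2.6, TopHat2 2.1.0, Cufflinks and Cuffdiff, R 3.2.3 and the dm6 build were used. How libraries were scaled to each other is not stated. The deposited positions mostly differ from dm6 (0 of 2813 genes on 2R start within 10 bases), so coordinates come from the Ensembl dm6 annotation, matched by FlyBase identifier. In the deposited table Idgf1, Idgf2 and CG5888 share 1 interval.

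The test was a linear model on log2(FPKM + 0.5) in limma 3.58.1 (R 4.3.3), a scale that understates changes of low genes. Genes needed 0.5 FPKM in 3 of 9 libraries, which 8853 of 14797 had. One fit of the 3 groups with a mean-variance trend gave every comparison, with Benjamini-Hochberg adjustment over all tested genes and a threshold of 0.05. The comparisons against control share its libraries, and the ph+E(z) libraries enter 2 comparisons.

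The members, the 5 gene lists and the 7 marker lists (117 symbols, of which PPO1 matched no gene and Cht10 is the same gene as Cht3) were chosen with earlier results of these data known. Named genes are the members, the knockdown targets, up to 4 called members of each list with the smallest adjusted p, the nearest genes within 20 kb, and the 3 best correlated named genes of each member. The other list genes in the text, such as srp, the genes at 0 FPKM and Nplp2, were named outside this rule after their values were seen. Deviations from the group means had r between -0.137 and 0.197 for same-numbered libraries and between -0.163 and 0.102 for other pairs. With 3 libraries per group these values cannot settle whether the numbers pair the samples. The main fit leaves them unpaired. Alternatives covered the pseudocount, filter, scaling, trend, array weights, fits of 2 groups, a replicate block and leaving out each library. No sequences were read, since no genome sequence was used here.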

Additional observations from a re-analysis of the deposited data

How the results depend on the processing

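Idgf2 kept its direction and its call against control RNAi under all 10 settings other than leaving out a library, in both comparisons with control. For ph+E(z) RNAi against control 2 Idgf genes were called; 1 was called without the filter, in a fit of the 2 groups alone and with the replicate block, and 4 with array weights, which give control replicate 1 a weight of 0.0443; leaving out libraries gave 0 to 3. In those 3 settings the call on Idgf1 was lost (limma adjusted p of 0.0604, 0.0931 and 0.0651). For the addition of CtBP RNAi 0 Idgf genes were called, and 1, Idgf4, with array weights; leaving out libraries gave 0. With RNAi against all 3 targets 3 were called, and leaving out libraries gave 1 to 4. In the fit of 2 groups Idgf1 was not called there (adjusted p = 0.0610). The log2 difference of Idgf3 for the addition of CtBP RNAi was 0.066 with array weights and between -0.20 and 0.22 when libraries were left out, so it has no stable sign. That of Idgf4 for ph+E(z) RNAi against control moved between 0.50 and 1.51 with the pseudocount, and with RNAi against all 3 targets between 0.93 and 2.29.

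Counts over all genes in the 3 comparisons, in the order of the report, were 347, 329 and 861. They were 2924, 2396 and 3278 with array weights and 210, 793 and 378 in fits of 2 groups. The replicate block gave 212 in the first comparison and no count beyond 1.5 times the main one in the others. Leaving out libraries gave 108 to 602, 89 to 1191 and 298 to 1541; the most calls came without control replicate 1, the fewest without ph+E(z) replicate 2 for the first and second comparison and without ph+E(z)+CtBP replicate 1 for the last. The cause of these shifts was not tested. Read depth is unknown, so the floor of Idgf4 and Idgf5 cannot be set.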
